A study of Mus musculus with 6 samples.

Results

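Desmosomes were followed through 10 genes in mouse ovarian cancer cells: the plakophilins Pkp1, Pkp2, Pkp3 and Pkp4, the plakin Dsp, the plaque protein gene Jup, the desmosomal cadherins Dsg2, Dsc2 and Dsc3, and Perp. They are 10 of the 35275 Ensembl genes in the table of RNA levels and were chosen by name, as a set put together around Pkp1 because its RNA differed between the groups compared here. The values of Pkp1 are therefore a description and carry no test. All 10 genes were found in the table by their symbols, and 8 passed the minimum level of a mean FPKM (fragments counted per kilobase of transcript at a common depth) of 0.5, the 2 others being Pkp3 and Dsc3.

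Messenger RNA of ID8-KMF cells was sequenced, a mouse ovarian cancer line of strain C57Bl6/J that came from ID8 cells passaged in vivo. The GFP-Rgnef group (3 libraries) was Rgnef-/- cells carrying a lentiviral construct for GFP-tagged Rgnef, and the Rgnef KO group (3 libraries) was Rgnef-/- cells without it. Rgnef, annotated as Arhgef28, encodes a guanine nucleotide exchange factor for RhoA. Cells of both groups share the knockout and were grown subconfluent, in 2 dimensions, on dishes with Matrigel. No library of the unedited line was analysed here, so each difference below is knockout cells with the construct against knockout cells without it, and Rgnef, its tag and the virus cannot be told apart as sources of a difference. Whether a line is 1 clone, which promoter drives the construct and whether replicate libraries stem from separate cultures are not given in the sources used here. The spread behind the p-values is that among these libraries and may be technical.

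Desmosomes join neighbouring cells and anchor their keratin filaments. Desmogleins and desmocollins, which are cadherins, span the membrane and bind those of the next cell. Inside the cell they bind plakoglobin (Jup) and the plakophilins, and desmoplakin (Dsp) ties this plaque to keratin. Perp is a tetraspan membrane protein that desmosomes need in stratified epithelia and is also a p53 target. Pkp1 is best known from the upper layers of the epidermis, while Pkp2 is the broad form of simple epithelia and the form of the heart.

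The depth implied by the FPKM values, which was inferred and not reported, was 15898965 to 17977069 reads per library. Arhgef28 matched the labels, with 57.2, 50.9 and 50.02 FPKM in the GFP-Rgnef libraries against 0.116, 0.110 and 0.134 FPKM in the Rgnef KO libraries. Of mesothelial and ovarian surface markers, 8 of 10 passed the minimum, with summed levels of 1839 to 2676 FPKM in GFP-Rgnef and 1739 to 2725 FPKM in Rgnef KO, and 1 differed between the groups at a limma adjusted p below 0.05 (a call below), Krt18. Much of these sums was the keratin gene Krt19, which averaged 1188 FPKM in GFP-Rgnef and 1085 FPKM in Rgnef KO. It was lowest in library 3 of both groups (794 FPKM in GFP-Rgnef, 679 FPKM in Rgnef KO). Markers of other cells were mostly at or near 0: 1 of 9 leukocyte markers passed the minimum (summed 2.35 to 3.75 FPKM in GFP-Rgnef, 2.58 to 3.97 FPKM in Rgnef KO), with Cd3e and Adgre1 at 0 in all 6 libraries. Kdr, an endothelial marker, and Actc1 and Nppa of heart muscle were at 0 in all 6 as well. Tek made up most of the 95.8 to 108.4 FPKM in GFP-Rgnef and 85.9 to 145.8 FPKM in Rgnef KO summed over 6 endothelial markers. Tnnt2 made up most of the 10.96 to 30.7 FPKM in GFP-Rgnef and 16.5 to 37.7 FPKM in Rgnef KO over 6 heart muscle markers, and neither was called. Of 8 fibroblast markers 6 passed the minimum (summed 148.8 to 168.8 FPKM in GFP-Rgnef, 144.3 to 158.7 FPKM in Rgnef KO), with Lum and Pdgfrb near 0. Their median difference (GFP-Rgnef minus Rgnef KO, log2(FPKM + 1)) was -0.46: 5 of the 6 had lower means in GFP-Rgnef and were not called, among them Col1a1 (1.79 FPKM in GFP-Rgnef, 5.52 FPKM in Rgnef KO, limma adjusted p = 0.0510). The exception was Dcn (58.9 FPKM in GFP-Rgnef, 32.8 FPKM in Rgnef KO, limma adjusted p = 0.0426), whose call was lost without any 1 library other than GFP-Rgnef library 3, without the minimum level, without the trend in the variance model and with chromosome medians removed (limma adjusted p of up to 0.140). In bulk RNA, fewer cells with a transcript and less of it per cell cannot be told apart.

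Across the set, Pkp1 was 3.26-fold higher in Rgnef KO than in GFP-Rgnef libraries, Dsc2 was 1.5-fold higher in Rgnef KO, and Perp was 1.61-fold higher in GFP-Rgnef. The most abundant plakophilin (Pkp4), Pkp2, Dsp, Jup and Dsg2 were not called. Differences are given as GFP-Rgnef minus Rgnef KO of log2(FPKM + 1), a scale that makes changes of low genes look smaller, and a gene was called at a limma adjusted p below 0.05 over all 11500 genes tested. Of the 7 tested genes other than Pkp1, 1 was called higher in GFP-Rgnef and 1 lower, against 5.34% and 8.04% of all tested genes (13.4% in either direction). Of these 7 genes the groups did not overlap for 2, Dsc2 and Perp, against 33.4% of all tested genes (16.7% with GFP-Rgnef higher and 16.7% with it lower). These counts describe a set chosen with results known, and nothing is read from them about desmosomes as a whole.

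**Figure D1:**
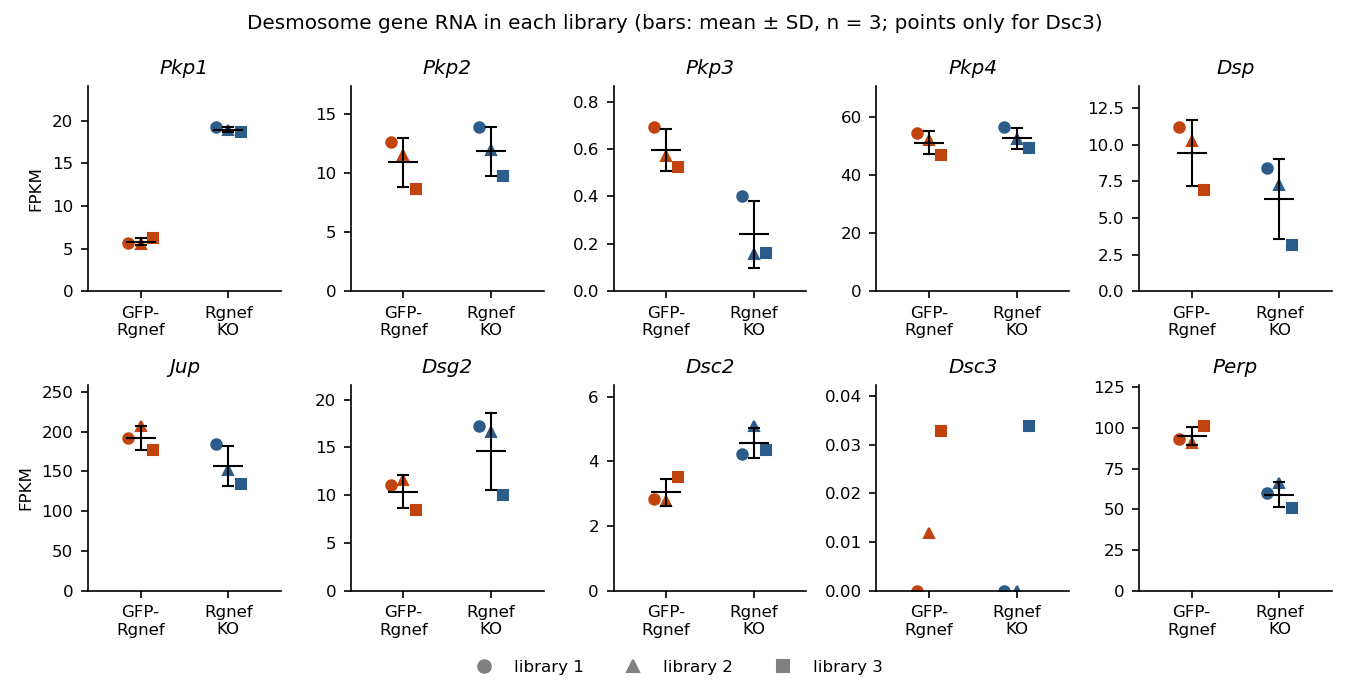
RNA level (FPKM, linear axis from 0 with its own scale in each panel) of the 10 desmosome genes in 3 GFP-Rgnef libraries (left, orange) and 3 Rgnef KO libraries (right, blue); marker shapes give the library number and bars the mean ± SD (n = 3), except for Dsc3, which is listed at 0 in 3 libraries. Pkp1 sits at 5.51 to 6.25 FPKM in GFP-Rgnef and 18.7 to 19.3 FPKM in Rgnef KO, and squares (library 3) are the lowest points of both groups for Pkp2, Pkp4, Dsp, Jup and Dsg2.

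Pkp1 (ENSMUSG00000026413, GRCm38 chromosome 1, 135871395 to 135919207, minus strand, protein coding) encodes plakophilin 1, an armadillo protein that clusters desmosomal cadherins and desmoplakin at the membrane. It had 5.67, 5.51 and 6.25 FPKM in the GFP-Rgnef libraries against 19.3, 18.9 and 18.7 FPKM in the Rgnef KO libraries. Every Rgnef KO library was thus far above every GFP-Rgnef library, and the libraries of a group lay close together. The reads recovered behind these values were 260, 236 and 291 in GFP-Rgnef against 933, 885 and 845 in Rgnef KO. The means were 5.81 ± 0.390 FPKM in GFP-Rgnef and 18.9 ± 0.275 FPKM in Rgnef KO (SD, n = 3 each), a difference of -1.55. Of the 11500 genes tested, 31 had a more negative difference. The size was -1.69 with a pseudocount of 0.1 in place of 1.

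Pkp2 (ENSMUSG00000041957, chromosome 16, 16213318 to 16272712, plus strand), the plakophilin of simple epithelia, had 12.7, 11.5 and 8.63 FPKM in GFP-Rgnef against 13.9, 11.9 and 9.75 FPKM in Rgnef KO. The groups overlapped nearly throughout, and library 3 was the lowest in each. The difference was -0.11 (SE 0.159, 95% interval -0.48 to 0.26, limma adjusted p = 0.715). Pkp4 (ENSMUSG00000026991, chromosome 2, 59160850 to 59355208, plus strand), a p120-related protein found at adherens junctions as well as desmosomes, had 54.6, 52.2 and 46.8 FPKM in GFP-Rgnef against 56.6, 52.3 and 49.2 FPKM in Rgnef KO. These groups overlapped as well, again with library 3 lowest in each, and the difference of -0.04 had a 95% interval of -0.23 to 0.15 (SE 0.083, limma adjusted p = 0.803). Pkp3 (ENSMUSG00000054065, chromosome 7, 141078218 to 141090510, plus strand), the plakophilin present in most layers of stratified and in simple epithelia, had 0.693, 0.570 and 0.525 FPKM in GFP-Rgnef against 0.403, 0.156 and 0.162 FPKM in Rgnef KO. All 3 GFP-Rgnef libraries were above all 3 Rgnef KO libraries, but the values rest on 13, 10 and 10 reads in GFP-Rgnef against 8, 3 and 3 in Rgnef KO, and the gene was below the minimum for the test. Pkp3 lies on chromosome 7, where 7 of 819 tested genes were called higher and 236 lower in GFP-Rgnef, with a median difference of -0.24.

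The make-up of plakophilin RNA differed between the groups through Pkp1. Pkp1 made up 7.70%, 7.89% and 10.04% of the summed FPKM of the 4 plakophilins in the GFP-Rgnef libraries against 21.4%, 22.7% and 24.1% in the Rgnef KO libraries. Pkp4 was the largest share in every library, at 74.1% to 75.3% in GFP-Rgnef and 62.8% to 63.2% in Rgnef KO. Among Pkp1, Pkp2 and Pkp3, which are the plakophilins in the strict sense, Pkp1 held 29.8%, 31.3% and 40.6% in GFP-Rgnef against 57.4%, 60.9% and 65.4% in Rgnef KO. Pkp1 was thus below Pkp2 in every GFP-Rgnef library and above it in every Rgnef KO library. These shares restate the Pkp1 difference and are no separate result, and the share was highest in library 3 of both groups, where Pkp2 and Pkp4 were lowest. The summed plakophilin level was 73.6, 69.8 and 62.2 FPKM in GFP-Rgnef against 90.1, 83.3 and 77.8 FPKM in Rgnef KO.

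**Figure D2:**
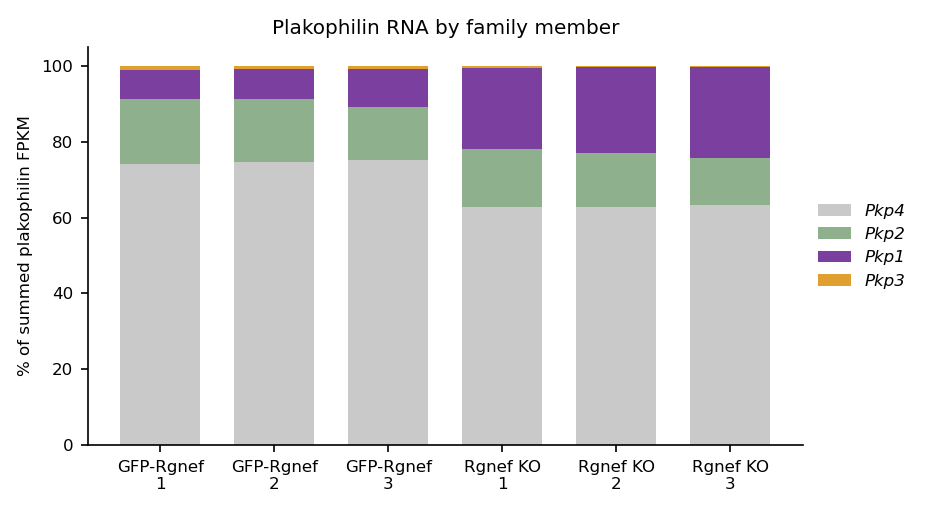
Share of each plakophilin in the summed FPKM of Pkp1 to Pkp4 (stacked bars, percent) in each of the 3 GFP-Rgnef libraries (left) and the 3 Rgnef KO libraries (right). The purple Pkp1 band takes 7.70% to 10.04% in GFP-Rgnef and 21.4% to 24.1% in Rgnef KO, and Pkp3 takes at most 0.941%.

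Of the plaque proteins that join cadherins to keratin, Dsp and Jup had higher mean levels in GFP-Rgnef libraries without being called. Dsp (ENSMUSG00000054889, chromosome 13, 38151294 to 38198577, plus strand), desmoplakin, had 11.2, 10.3 and 6.89 FPKM in GFP-Rgnef against 8.45, 7.25 and 3.19 FPKM in Rgnef KO. Library 3 was the lowest of each group by a wide margin, so that GFP-Rgnef library 3 lay below libraries 1 and 2 of Rgnef KO. The means were 9.45 ± 2.27 FPKM in GFP-Rgnef and 6.29 ± 2.76 FPKM in Rgnef KO (SD, n = 3 each), a difference of 0.58 (SE 0.297, 95% interval -0.11 to 1.26, limma adjusted p = 0.247). The difference was 0.22 without Rgnef KO library 3 (limma adjusted p = 0.496) and 0.45 to 0.81 without any other 1 library, none of them called. Without the libraries numbered 3 of both groups it was 0.41 and called (limma adjusted p = 0.0283). The exons of Dsp overlap those of Gm10129 on the opposite strand over 499 bases, and the handling of strand is not given in the sources used here. Jup (ENSMUSG00000001552, chromosome 11, 100368958 to 100397763, minus strand), plakoglobin, shared by desmosomes and adherens junctions, had 192.0, 206.6 and 176.4 FPKM in GFP-Rgnef against 183.7, 151.9 and 133.7 FPKM in Rgnef KO. Only Rgnef KO library 1 reached into the range of GFP-Rgnef. The difference of Jup was 0.30 (SE 0.116, 95% interval 0.03 to 0.57, limma adjusted p = 0.13), while without Rgnef KO library 3 it was 0.19 (limma adjusted p = 0.264) and without Rgnef KO library 1 it was 0.42 and called (limma adjusted p = 0.0382).

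A stretch around the annotated start of Dsp is shown because Dsp had the largest difference among the members with a promoter window in the RefSeq-derived table, which were Dsp, Jup and Pkp4. The window spans 250 bases before to 50 after the start. It was searched on both strands for CAGGTG, bound by the SNAI and ZEB repressors of epithelial genes, TGANTCA (AP-1), GGAATG (TEAD) and AACNGGTT (GRHL), where N is any base. On GRCm38.p6, chr13:38151244-38151323, plus strand, with CAGGTG in capitals, the sequence from RefSeq reads 5′ to 3′ as follows.
Dsp: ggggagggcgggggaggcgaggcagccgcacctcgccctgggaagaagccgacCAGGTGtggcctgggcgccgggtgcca
The letters begin 3 bases after the start, and 20.2% of 32851 promoter windows hold them. The Dsp window held none of the other motifs, whose shares over all windows were 7.81% for TGANTCA, 14.7% for GGAATG and 2.09% for AACNGGTT. Of the Pkp4 windows, 1 held CAGGTG 1 time and GGAATG 2 times and the other held none, as did that of Jup. A match of letters describes the sequence and is not a binding site shown here. Of the repressor genes of that kind, Zeb1 averaged 13.7 FPKM in GFP-Rgnef and 13.5 FPKM in Rgnef KO (difference 0.02, SE 0.091, limma adjusted p = 0.915). Zeb2 averaged 11.3 FPKM in GFP-Rgnef and 14.96 FPKM in Rgnef KO (difference -0.36, 95% interval -0.68 to -0.05, limma adjusted p = 0.124). Snai1 (difference 0.26, limma adjusted p = 0.419) and Snai2 (difference 0.11, limma adjusted p = 0.689) were not called either.

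The desmosomal cadherins measured were a pair, Dsg2 and Dsc2, the desmoglein and desmocollin of simple epithelia, and both had higher means in Rgnef KO. Dsc2 (ENSMUSG00000024331, chromosome 18, 20030633 to 20059554, minus strand) had 2.82, 2.77 and 3.50 FPKM in GFP-Rgnef against 4.24, 5.08 and 4.36 FPKM in Rgnef KO. The groups did not overlap. The means were 3.03 ± 0.408 FPKM in GFP-Rgnef and 4.56 ± 0.455 FPKM in Rgnef KO (SD, n = 3 each), and Dsc2 was called lower in GFP-Rgnef (difference -0.47, SE 0.115, 95% interval -0.73 to -0.20, limma adjusted p = 0.0336). That call rested on nearly every library: the limma adjusted p was 0.110 without GFP-Rgnef library 1, 0.126 without GFP-Rgnef library 2, 0.0638 without Rgnef KO library 1, 0.124 without Rgnef KO library 2 and 0.0514 without Rgnef KO library 3. With no filter on low genes it was 0.101. Dsg2 (ENSMUSG00000044393, chromosome 18, 20558074 to 20604521, plus strand) had 11.1, 11.6 and 8.46 FPKM in GFP-Rgnef against 17.2, 16.6 and 9.96 FPKM in Rgnef KO. Libraries 1 and 2 of Rgnef KO were well above all GFP-Rgnef libraries, and Rgnef KO library 3 was within their range. The difference was -0.43 (SE 0.200, 95% interval -0.89 to 0.03, limma adjusted p = 0.205), while without Rgnef KO library 3 it was -0.66 and called (limma adjusted p = 0.0194).

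The other desmosomal cadherins of mouse were at or near 0. Dsc3 (ENSMUSG00000059898, chromosome 18, 19960930 to 20002351, minus strand), a desmocollin of basal epidermis, had 0, 1 and 3 reads in GFP-Rgnef against 0, 0 and 3 in Rgnef KO. Of Dsg1a, Dsg1b, Dsg1c, Dsg3, Dsg4 and Dsc1, the cadherins of skin and hair, 5 were listed at 0 in all 6 libraries, and Dsg4 had 0.0181 FPKM in GFP-Rgnef library 2 only. Dsg2 exceeded Dsc2 in every library, by a ratio of FPKM of 3.93, 4.18 and 2.42 in GFP-Rgnef against 4.06, 3.26 and 2.28 in Rgnef KO, and these ranges overlap. Library 3 had the lowest ratio of each group.

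Perp (ENSMUSG00000019851, chromosome 10, 18845020 to 18857073, plus strand) had 93.2, 90.7 and 101.0 FPKM in GFP-Rgnef against 60.2, 66.0 and 50.8 FPKM in Rgnef KO. Every GFP-Rgnef library was above every Rgnef KO library. Perp was called higher in GFP-Rgnef, at 94.95 ± 5.37 FPKM in GFP-Rgnef and 59.01 ± 7.65 FPKM in Rgnef KO (SD, n = 3 each; difference 0.68, SE 0.099, 95% interval 0.46 to 0.91, limma adjusted p = 0.0048). Of all genes tested, 164 had a more positive difference. Perp kept its call under all 15 alternative settings, with a limma adjusted p of 0.00572 to 0.0209 when each library was left out in turn. Perp and Pkp1 differed in opposite directions, so that Perp stood at 16.4, 16.5 and 16.2 times the FPKM of Pkp1 in GFP-Rgnef and at 3.13, 3.50 and 2.72 times in Rgnef KO.

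**Figure D3:**
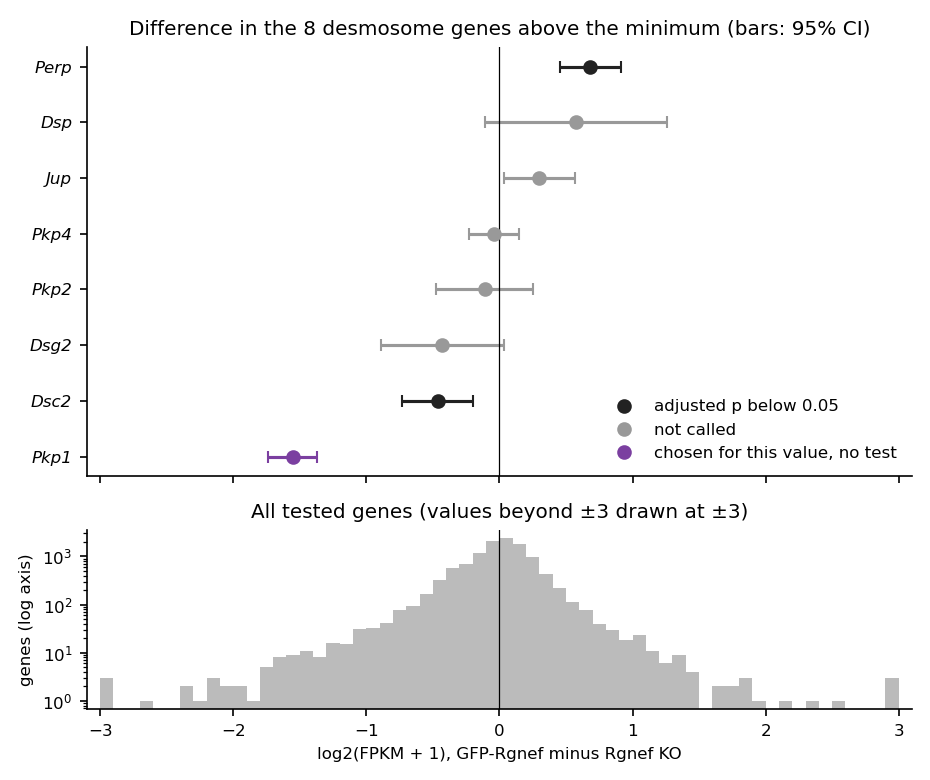
Upper panel: difference of the 8 desmosome genes above the minimum, as GFP-Rgnef minus Rgnef KO on the log2(FPKM + 1) scale, with 95% intervals; black genes had a limma adjusted p below 0.05, grey genes did not, and purple Pkp1 was not tested because it was chosen for this value. Lower panel: number of genes (log axis) by difference over all 11500 genes tested, with values beyond ±3 drawn at ±3. Pkp1 lies at -1.55 and Perp at 0.68, and the intervals of Pkp2, Pkp4, Dsp and Dsg2 cross 0. The interval drawn for Pkp1 is no test, because the set was chosen for its difference.

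Several members also varied together across the library numbers. Pkp2, Pkp4, Dsp, Jup and Dsg2 were lower in library 3 than the mean of libraries 1 and 2 in both groups. For Dsp this gap was -0.57 in GFP-Rgnef and -1.08 in Rgnef KO (log2), for Dsg2 -0.38 in GFP-Rgnef and -0.71 in Rgnef KO, and for Pkp2 -0.44 in GFP-Rgnef and -0.37 in Rgnef KO. Jup (-0.17 in GFP-Rgnef, -0.32 in Rgnef KO) and Pkp4 (-0.18 in GFP-Rgnef, -0.14 in Rgnef KO) had smaller gaps in the same direction. Pkp1 (0.14 in GFP-Rgnef, -0.02 in Rgnef KO), Dsc2 (0.25 in GFP-Rgnef, -0.07 in Rgnef KO) and Perp (0.13 in GFP-Rgnef, -0.30 in Rgnef KO) did not follow it. That made 5 of 8 tested members, against 31.8% of all tested genes that were lower in library 3 of both groups, with medians over all tested genes of 0.007 in GFP-Rgnef and 0.018 in Rgnef KO. Nothing in the labels says what the libraries numbered 3 have in common, and the part of this gap in the results was not tested.

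Levels can be compared between genes only per length. For Pkp1, Pkp2, Pkp4, Jup, Dsg2 and Dsc2 the deposited FPKM matched the mean length of the gene's annotated transcripts rather than the longest. Dsp and Perp gave whole reads only at a length near that mean, 5944 against 5962 bases for Dsp and 1901 against 1952 for Perp. In the deposited FPKM the order in GFP-Rgnef was Jup, Perp, Pkp4, Pkp2, Dsg2, Dsp, Pkp1 and Dsc2, where Pkp2, Dsg2 and Dsp overlapped in their libraries and the other neighbours did not. In Rgnef KO it was Jup, Perp, Pkp4, Pkp1, Dsg2, Pkp2, Dsp and Dsc2, where Perp and Pkp4, Dsg2 and Pkp2, and Dsp and Dsc2 overlapped. Pkp1 was thus above Dsg2, Pkp2 and Dsp in Rgnef KO and below them in GFP-Rgnef. Per length of the longest transcript, Perp (88.3 to 98.3) was above Jup (75.2 to 88.04) in GFP-Rgnef, while Jup (57.0 to 78.3) and Perp (49.5 to 64.3) overlapped in Rgnef KO. On that scale Pkp1 averaged 3.35 in GFP-Rgnef and 10.9 in Rgnef KO (in FPKM recomputed with that length), and in Rgnef KO it overlapped with Pkp2 (8.66 to 12.4). The length behind the deposited values was 1366 bases for Jup, whose longest transcript has 3205, and 2696 bases for Pkp1, whose longest has 4669.

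**Figure D4:**
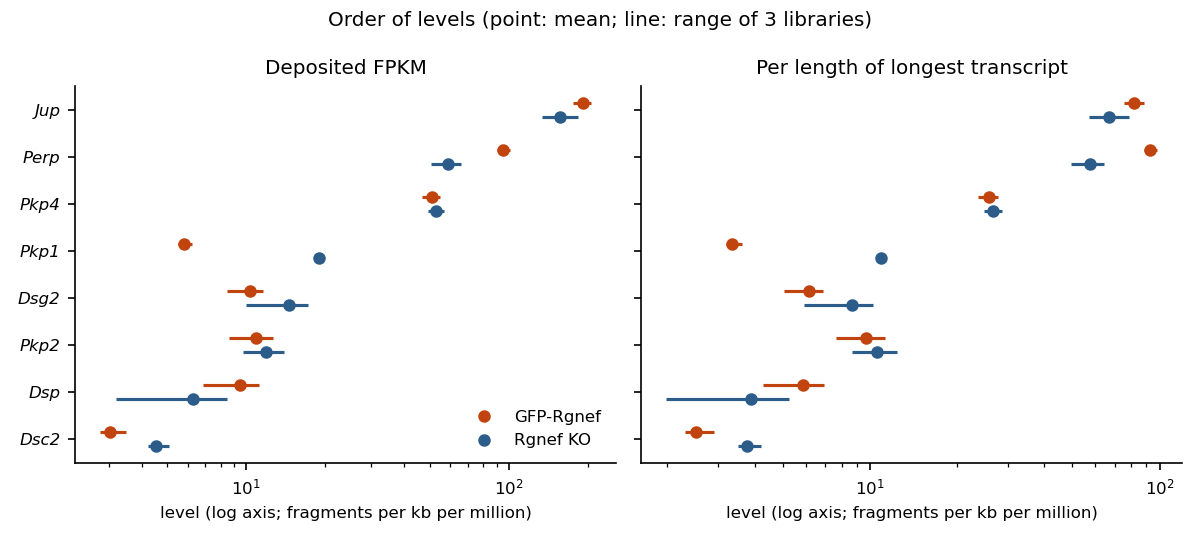
Level of the 8 desmosome genes above the minimum (log axes, FPKM) in GFP-Rgnef (orange, upper mark of each gene) and Rgnef KO (blue, lower mark), as deposited (left) and per length of the longest transcript (right); points are means and lines the range of 3 libraries. Pkp1 stands at 5.81 in GFP-Rgnef and 18.9 in Rgnef KO on the left, and Jup lies above Perp in GFP-Rgnef on the left but below it on the right.

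The genes around each member were examined for a change shared with their neighbours. Within 1 Mb of Pkp1, 23 other genes were tested, 1 of them was called higher and 1 lower in GFP-Rgnef, and the median difference was 0.05. The gene called higher was Elf3, an epithelial transcription factor, at 3.11 FPKM in GFP-Rgnef and 1.18 FPKM in Rgnef KO (difference 0.92, SE 0.12, limma adjusted p = 0.00321), opposite in direction to Pkp1. The gene called lower was Tmem9, at 16.1 FPKM in GFP-Rgnef and 23.0 FPKM in Rgnef KO (limma adjusted p = 0.0415), a call lost without any 1 library other than GFP-Rgnef library 3, with a limma adjusted p of up to 0.144. Near Perp, 1 of 6 was called higher and 0 lower, near Jup 6 of 37 were called higher and 2 lower (median 0.07), near Pkp2 0 of 18 were called higher and 2 lower, and near Pkp4 0 of 4 were called by limma or voom, with 0 at an unadjusted p below 0.05. Near Dsp 0 of 8 were called by limma, with 3 at an unadjusted p below 0.05 (2 higher, 1 lower), and voom called 1. Dsg2 and Dsc2 lie within 1 Mb of each other, and of the 4 genes tested near Dsg2 2 were called lower, 1 of them Dsc2. Near Pkp3, 10 of 37 were called lower and 0 higher. Over all tested genes 5.34% were called higher and 8.04% lower. On chromosome 7, which holds Pkp3, 7 of 819 tested genes were called higher and 236 lower. On chromosome 11, which holds Jup, 59 of 970 were called higher and 30 lower. Whether the neighbours depart from these shares was not tested.

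By Pearson correlation of log2(FPKM + 1) over the 6 libraries, the genes most like Pkp1 among 10014 genes were Hs6st2 (r = 0.9996), a heparan sulfate sulfotransferase gene, Cryab (r = 0.9994), a small heat shock protein gene, Pacsin3 (r = 0.9991), Cdh2 (r = 0.9988) and Tarsl2 (r = 0.9988). The 6 libraries form 2 groups that are far apart for these genes, so r mostly restates that all are lower in GFP-Rgnef. Pacsin3, an endocytic adaptor gene, had 3.18 ± 0.12 FPKM in GFP-Rgnef and 6.08 ± 0.106 FPKM in Rgnef KO (SD, n = 3 each). Cdh2, which encodes N-cadherin of adherens junctions, had 9.11, 9.89 and 11.2 FPKM in GFP-Rgnef against 44.04, 44.1 and 44.5 FPKM in Rgnef KO. Its 2 groups were further apart than those of Pkp1.

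Of the genes that work beside desmosomes, 102 in 12 lists were tested, and 5 were called higher and 15 lower in GFP-Rgnef, 19.6% in all against 13.4% of all tested genes. The median difference was -0.03 over these genes and 0.02 over all tested genes. Of the 15 called lower, 11 lie on chromosome 7 or 9, where 16 were tested and 0 called higher. Elsewhere 86 were tested, 5 called higher and 4 lower. Of all 819 tested genes on chromosome 7, 236 were called lower and 7 higher. The share on chromosome 9 is not given here, so the 11 cannot be set against the whole of both chromosomes. With the median of each chromosome removed, 5 were called lower in place of 15, and the part of these chromosomes in each result was not tested further. The number called lower was 9 without GFP-Rgnef library 1, 5 without GFP-Rgnef library 2 and 8 without Rgnef KO library 1 or 2. The number called higher was 3 without GFP-Rgnef library 1 and 2 without GFP-Rgnef library 2 or Rgnef KO library 2.

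Among the keratins and other filament genes that desmosomes can anchor, 7 of 14 were tested, 2 were called higher and 1 lower. Over all tested genes the shares were 5.34% higher and 8.04% lower. Krt18, a keratin of simple epithelia, had 331.6, 341.8 and 285.9 FPKM in GFP-Rgnef against 230.4, 213.8 and 229.0 FPKM in Rgnef KO. The groups did not overlap, and Krt18 was called higher (difference 0.50, SE 0.080, limma adjusted p = 0.00625). Its partner keratin Krt8 averaged 204 FPKM in GFP-Rgnef and 223 FPKM in Rgnef KO and was not called. Krt14, a keratin of basal epidermis, had 93.5, 84.3 and 62.2 FPKM in GFP-Rgnef against 153.3, 158.0 and 99.96 FPKM in Rgnef KO and was called lower (limma adjusted p = 0.0407). That call was lost without GFP-Rgnef library 2, GFP-Rgnef library 3, Rgnef KO library 1 or Rgnef KO library 2, with a limma adjusted p of up to 0.147, and without a filter on low genes (0.109). The call of Krt6a (0.910 FPKM in GFP-Rgnef, 0.170 FPKM in Rgnef KO, limma adjusted p = 0.0372) was lost without any 1 library other than GFP-Rgnef library 3, with a limma adjusted p of up to 0.117, without a filter (0.0545) and with chromosome medians removed (0.0606). The keratinocyte marker list held 8 genes, 5 of them tested, with 1 called higher (Sbsn) and 1 lower (Krt14), and Krt1 and Krt5 were near 0. Summed over the 8 genes, levels were 159.8 to 177.2 FPKM in GFP-Rgnef and 175.9 to 229.1 FPKM in Rgnef KO.

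Adherens junction genes were 12 in the test, 0 called higher and 2 lower, against 5.34% and 8.04% of all tested genes. At an unadjusted p below 0.05 2 were higher (Cdh1 and Plekha7). Cdh2 was called lower (difference -2.03, SE 0.085, limma adjusted p = 1.3e-05), and Nectin2 on chromosome 7 had a limma adjusted p of 0.0495, up to 0.780 under the alternatives, and lost its call without any 1 library other than Rgnef KO library 2. Cdh1, encoding E-cadherin, averaged 7.33 FPKM in GFP-Rgnef and 5.15 FPKM in Rgnef KO and was not called. Of 5 p120 and armadillo relatives, 1 was called lower, Armc8 on chromosome 9 (11.6 FPKM in GFP-Rgnef, 17.03 FPKM in Rgnef KO, limma adjusted p = 0.0117), a call lost with chromosome medians removed (limma adjusted p = 0.227) and without GFP-Rgnef library 2 (limma adjusted p = 0.0515). Ctnnb1, encoding beta-catenin, had 332.7 FPKM in GFP-Rgnef and 404.8 FPKM in Rgnef KO (limma adjusted p = 0.064). Tight junction genes were 10 in the test, with 0 called higher and 4 lower (8.04% of all tested genes were lower), namely Amotl2, Amotl1, Cgnl1 and Tjp1, all on chromosome 7 or 9. With chromosome medians removed, Amotl1 (limma adjusted p = 0.513), Cgnl1 (0.887) and Tjp1 (0.139) lost their calls. The calls of Amotl1, Cgnl1 and Tjp1 were lost without GFP-Rgnef library 2, Rgnef KO library 1 or Rgnef KO library 2, and that of Cgnl1 also without GFP-Rgnef library 1. Amotl2, a scaffold of cell junctions on chromosome 9, had 158.1, 143.3 and 98.3 FPKM in GFP-Rgnef against 297.2, 293.1 and 221.8 FPKM in Rgnef KO (difference -1.03, SE 0.181, limma adjusted p = 0.00922). Its groups did not overlap, with library 3 lowest in each, and its call held under all 15 alternatives.

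Plakins and envelope linkers other than Dsp gave 8 tested genes and 0 calls by limma or by voom on recovered reads, with 1 gene (Evpl, higher) at an unadjusted p below 0.05. The shares called over all tested genes were 5.34% higher and 8.04% lower, so nothing is read from 0 calls among 8 genes. Periplakin (Ppl), which binds keratin as desmoplakin does, had 79.1, 73.2 and 46.1 FPKM in GFP-Rgnef against 89.4, 78.0 and 41.8 FPKM in Rgnef KO. Library 3 was again the lowest of each group. Hemidesmosome genes, which hold keratin to the basement membrane, gave 4 tested genes, with 1 called higher and 1 lower. Nothing is read from these counts beside the same shares, and 0 were called higher when any 1 library was left out. The gene called lower was Cd151 on chromosome 7 (116.1 FPKM in GFP-Rgnef, 140.8 FPKM in Rgnef KO, limma adjusted p = 0.022). Cd151 lost its call without GFP-Rgnef library 1 or 2 or Rgnef KO library 1 or 2, and with chromosome medians removed its limma adjusted p was 0.841.

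Of 19 tested genes of desmosome assembly and turnover, 0 were called higher and 4 lower, against 5.34% and 8.04% of all tested genes. Rhoa, the GTPase on which Rgnef acts, had 153.3, 156.7 and 161.6 FPKM in GFP-Rgnef against 198.9, 223.9 and 214.4 FPKM in Rgnef KO. The groups did not overlap (difference -0.43, SE 0.065, limma adjusted p = 0.00529), but Rhoa lies on chromosome 9, and with chromosome medians removed its limma adjusted p was 0.250. The others were Cttn on chromosome 7, Adam10 on chromosome 9 and Kif5b (151.3 FPKM in GFP-Rgnef, 182.5 FPKM in Rgnef KO, limma adjusted p = 0.0241). All 3 lost their call without GFP-Rgnef library 1 or 2, Kif5b also without Rgnef KO library 2, and Adam10 without any 1 library other than GFP-Rgnef library 3. With chromosome medians removed, Cttn (limma adjusted p = 0.771) and Adam10 (0.472) lost their calls as well. The RNA-binding partners of plakophilins, such as Eif4a1 and Pabpc1, gave 10 tested genes and 0 calls by limma or voom, with 1 gene (Eif4a2, higher) at an unadjusted p below 0.05.

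Epithelial transcription factors gave 5 tested genes of 13, with Elf3 the only call. Grhl1 was higher at an unadjusted p below 0.05 (0.989 FPKM in GFP-Rgnef, 0.540 FPKM in Rgnef KO, limma adjusted p = 0.174). Elf3 had 2.88, 3.37 and 3.07 FPKM in GFP-Rgnef against 1.36, 1.22 and 0.949 FPKM in Rgnef KO, and its groups did not overlap. Trp63 and Grhl2, regulators of epithelia, were below the minimum. Of 6 tested junction repressors 0 were called by limma or voom, with 1 (Zeb2, lower) at an unadjusted p below 0.05. Of 17 p53 targets and regulators listed because Perp is a p53 target, 1 was called higher and 2 lower. Over all tested genes the shares were 5.34% higher and 8.04% lower, and nothing is read from this count about p53 targets. Cdkn1a, the p21 gene, was called higher (62.1 ± 2.17 FPKM in GFP-Rgnef, 48.9 ± 2.53 FPKM in Rgnef KO, SD, n = 3 each, limma adjusted p = 0.015), a call lost without GFP-Rgnef library 2 or Rgnef KO library 2 (limma adjusted p of up to 0.0679). Pmaip1, the Noxa gene, was called lower with 1.44, 1.71 and 2.47 FPKM in GFP-Rgnef against 4.92, 4.95 and 4.99 FPKM in Rgnef KO (difference -1.07, SE 0.139, limma adjusted p = 0.00324). Aen on chromosome 7 was called lower at 53.7 FPKM in GFP-Rgnef and 71.5 FPKM in Rgnef KO (limma adjusted p = 0.00643), and with chromosome medians removed its limma adjusted p was 0.172.

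**Figure D5:**
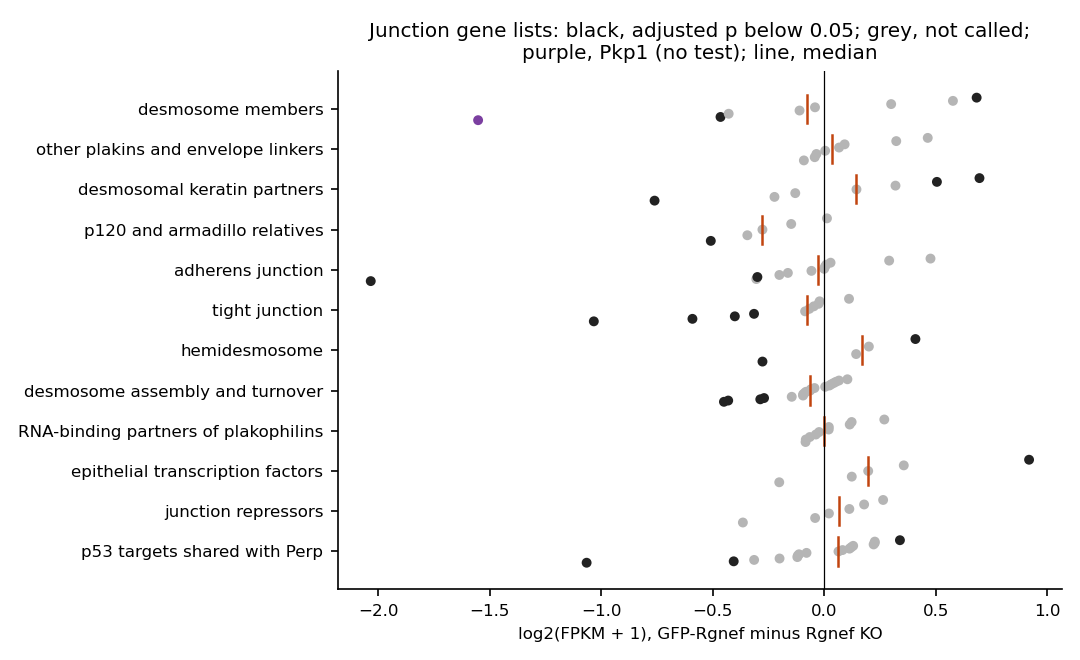
Difference of each tested gene (points) in the desmosome set and in 11 lists of related genes with tested members, as GFP-Rgnef minus Rgnef KO on the log2(FPKM + 1) scale; black points had a limma adjusted p below 0.05, grey points did not, purple is Pkp1 (no test), and short orange lines are list medians. Pkp1 at -1.55 is the lowest point of the desmosome set, and Cdh2 at -2.03 is the lowest point of the plot.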

How the data were processed

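The authors deposited 1 table of FPKM values per Ensembl gene for 6 libraries, prepared with poly-T selection and a NEBNext Ultra kit, per the labels. The submitters' processing notes name CASAVA 1.8, TopHat2 2.0.9, DESeq2 and build mm10; annotation and strand handling are not given in the sources used here. Gene names and positions came from GENCODE mouse release M 21 (GRCm38), which matched 34490 identifiers. Whole reads were recovered from FPKM with a tolerance of 0.02 reads. Of 19655 genes above 0, 11089 fitted the mean length of their transcripts, 3899 a length within 15% of it and 4667 only the smallest length giving whole reads. The recovered reads summed to 101% of the implied depths, and few reads mean a larger counting error.

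limma 3.58.1 with trend (R 4.3.3) was fitted to log2(FPKM + 1) where the mean reached 0.5 FPKM, with group as the only term and Benjamini-Hochberg adjustment over all genes, after a check on simulated data with 200 changed genes. Intervals are 95% intervals of the fit. Tables used Python 3.11.15, numpy 2.4.6 and pandas 2.3.3, and plots matplotlib 3.10.9. The members and lists were chosen with earlier results of these data known. Named genes were the members, Arhgef28, up to 3 called genes per list (otherwise the 2 most abundant, and any other desmosomal cadherin with reads) and the 5 most like Pkp1 among genes averaging at least 1 FPKM. Tmem9, Tjp1, Adam10, Krt8, Cdh1, Trp63, Grhl1, Grhl2, Evpl, Eif4a2, Zeb2, Snai1, Snai2, Plekha7 and the single markers were named after their values were seen, and the length, neighbour and library 3 descriptions were added then. Alternatives covered the pseudocount, filter, scaling, trend, voom on recovered reads, chromosome medians, a replicate block and libraries left out. Some listed genes were counted but are not named here.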

Additional observations from a re-analysis of the deposited data

How the results depend on the processing

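Over 15 alternative settings Pkp1 kept its direction, at -1.69 with a pseudocount of 0.1, -1.70 by voom on recovered reads and -1.60 to -1.52 when each library was left out. The set was chosen for this difference in these same libraries, so its stability is a description and lends it no support. The number of genes called higher in GFP-Rgnef, 614, was 394 without a filter, 388 with chromosome medians removed, 1048 without the libraries numbered 3 and 198 to 578 when each library was left out; the number called lower, 925, was 495 with chromosome medians removed and 455 to 850 when each library was left out. By voom on recovered reads 574 were called higher and 995 lower. Of the desmosome genes other than Pkp1, 2 were called higher and 2 lower without the libraries numbered 3 and 0 were called lower without a filter or with a minimum of 5 FPKM, which removes Dsc2; when each library was left out, 1 to 2 were called higher and 0 to 1 lower. Of related genes 3 were called higher without a filter, 3 with that minimum and 8 without the libraries numbered 3, and 5 were called lower with chromosome medians removed; when each library was left out, 2 to 4 were called higher and 5 to 15 lower. Differences near 0 changed sign when libraries were left out: Pkp2 ranged from -0.23 to 0.037, Pkp4 from -0.089 to 0.020, Ppl from -0.37 to 0.19 and Zeb1 from -0.032 to 0.079. Ctnnb1 was at 0.015 with chromosome medians removed. Of 27 called genes named outside the set, 11 kept their call under all alternatives that gave a value and 14 lost it without at least 1 library. Of 330 counts per list, 72 moved by over 1.5 times. The causes were not tested.

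The labels do not say whether same-numbered libraries are pairs, and the values do not settle it. Deviations of same-numbered libraries from their group means correlated at r = 0.321, -0.0199 and 0.552 for numbers 1, 2 and 3. These correlations run across 11500 genes, which are not independent replicates. The libraries numbered 3 had the highest r of any pairing. GFP-Rgnef library 2, however, correlated best with Rgnef KO library 1 (r = 0.399). With the number as a replicate block 1253 genes were called higher and 1517 lower. Of the desmosome genes other than Pkp1, 3 were then called higher (Perp, Dsp with a limma adjusted p of 0.00547 and Jup with 0.0157) and 2 lower (Dsc2 and Dsg2, the second with 0.00811), and of related genes 10 were called higher and 20 lower.

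Pkp3 (3 to 13 reads) and Dsc3 (0 to 3 reads) are too low for a statement beyond their values.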
